A study of Mus musculus with 4 samples.

Results

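The last step of adult granule cell maturation was examined by comparing 2 clusters of nuclei, young granule cells (GCyoung) and the first cluster of mature granule cells (GCmat1). Their members were the nuclei that the authors had assigned to GCyoung, or to GCmat1 with a pseudo-time value, in the libraries taken 4 and 8 weeks after tamoxifen (w4 and w8). These were 5277 of the 14367 nuclei in the 4 libraries of the dataset. GCyoung held 1979 nuclei in w4 and 188 in w8, and GCmat1 held 399 in w4 and 2711 in w8. A further 4 GCmat1 nuclei of w4 and 216 of w8 had no pseudo-time and were left out. The earlier libraries, w1 and w2, held 9 GCyoung and 26 GCmat1 nuclei between them and did not enter the comparison.

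The study labeled the progeny of stem cells of the adult mouse dentate gyrus and read the RNA of sorted single nuclei at several ages of the new neurons. Both groups came from mice with a tamoxifen-inducible Cre and CAGfloxStop-Sun1/sfGFP on a C57BL/6J background, aged 6 to 8 weeks, males and females, all treated with tamoxifen. Cells in which Cre was active at the injection, and their descendants, carried the green nuclear envelope used for sorting. Each library was 1 pool of 4 left dentate gyri, and 2 libraries were processed per day. The step was thus seen in 2 pools, w4 and w8, each of which held nuclei of both clusters side by side. From w4 the authors had left out a group of nuclei, mostly male by their sex genes. They proposed that this group may stem from a single male animal. Its bearing on the sex mix of w4 was not tested.

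Granule cells are the principal excitatory neurons of the dentate gyrus, and new ones are added throughout adult life. A young granule cell already fires and carries glutamatergic synapses, but it is known for an easily evoked discharge and a low threshold for plasticity, which give way to sparse firing and strong inhibition in the mature cell. Growth cone proteins, guidance receptors, adhesion molecules and extracellular matrix enzymes shape the axon and dendrites while they grow, whereas channels, receptors and second messenger enzymes set how the finished cell responds.

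Each UMI stands for a single RNA molecule, and those of all nuclei of a cluster were added up within its library. These 4 sums held 15789336 and 3561463 UMIs for GCyoung and GCmat1 of w4, and 1434526 and 22925134 for those of w8. Levels are given below as counts per 1000000 UMIs of a sum (CPM). The smallest sum, GCyoung of w8, was therefore the least precise, and 1 of its UMIs stood for 0.697 CPM. Median UMIs per nucleus lay between 7030 and 8600, and mitochondrial UMIs were at or under 0.0106% in each sum. The 9 granule cell markers (Prox1, Calb1, C1ql2, Dsp, Plk5, Maml2, Stxbp6, Pdzd2 and Rfx3) were present in all 4 sums and together made up 4346 to 4729 CPM. Astrocyte markers summed to 168 to 248 CPM, against 14490 in the w4 astrocytes of the same dataset. Of those 12 markers, Slc1a2 was lower and Slc1a3 higher in GCmat1, and Gjb6, Gja1, Slc7a10, Fgfr3 and Grin2c were at 0 in at least 1 sum. Markers of 9 other glial, vascular, neuronal and progenitor classes summed to at most 83.5 CPM in any sum, with Neurod6 and Igfbpl1 the only members called (both lower), and Bmp4 of oligodendrocyte precursors and Drd2 and Csf2rb2 of mossy cells were at 0 in all 4. The part of RNA from other cells in the results below was not tested.

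Library and sex moved together. Of the nuclei that could be sexed from Xist, Tsix and 3 Y-linked genes, w4 had 1633 female and 302 male nuclei in GCyoung and 352 and 36 in GCmat1. In w8 the figures were 31 female and 137 male in GCyoung and 324 and 2109 in GCmat1. Library was therefore a term of the model, and both clusters of a pool shared its animals and its day. That term was common to all clusters, so a fitted change is not purely the step within each library. The sex mix still differed somewhat between the clusters, with males at 15.6% of sexed nuclei in GCyoung and 9.28% in GCmat1 of w4, and at 81.6% and 86.7% in w8. The clusters also sat at different points of pseudo-time, the authors' ordering of nuclei along maturation. The median was 27.2 in w4 and 27.3 in w8 for GCyoung, and 28.6 in w4 and 30.1 in w8 for GCmat1, so the mature nuclei of w8 lay later than those of w4. Of the nuclei compared, 3 barcodes were shared between w4 and w8.

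Of 13751 genes tested, 561 (4.08%) changed from GCyoung to GCmat1 by at least 1.5-fold at an adjusted p of at most 0.05 (edgeR's quasi-likelihood test with library as a term, Benjamini-Hochberg adjustment). Among them, 233 (1.69% of those tested) were higher and 328 (2.39%) were lower in GCmat1. Falls were the larger changes. Of the 328 lower genes 93 fell over 4-fold and 42 over 8-fold, against 18 and 1 of the 233 higher genes. The higher genes had a median of 1784 UMIs over the 4 sums against 513 for the lower genes and 646 for all genes. GCmat1 gave more of these UMIs than GCyoung, so a rise in GCmat1 by itself adds to this count. It is therefore no measure of abundance before the step. Together the higher genes carried 14892 CPM in GCyoung and 26960 in GCmat1 of w4, and 14721 and 28501 in w8. The lower genes went from 17820 to 8896 in w4 and from 20251 to 8764 in w8. Both sets were made of long genes, with a median gene length of 108 kb for the higher and 91.4 kb for the lower genes against 27.2 kb for all genes tested. Protein-coding genes made up 205 of the higher and 297 of the lower genes. A further 13 higher and 8 lower genes were antisense genes, which are uncertain because their reads may not be told apart from those of the partner gene.

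The authors assigned nuclei to the clusters from the same transcripts, so a difference between the clusters was in part built in, and the p-values measure only how the step compares with the spread between these pooled sums. The number of calls depended on having both libraries. Without w8, 245 genes passed (107 higher, 138 lower), and without w4, 315 passed (137 higher, 178 lower). DESeq2 on the same sums called 257 genes, of which 57 were higher and 200 lower, so that 22.2% of its calls were rises against 41.5% in the edgeR fit. The calls were selected on these sums, so that a like direction in both libraries, or clusters that do not overlap, was in part built in for any called gene. The library term was shared with the other clusters. With the library effect taken from GCyoung and GCmat1 alone, an alternative added after seeing the data, 542 genes passed (232 higher, 310 lower), 492 of them among the 561, and of the named genes Boc, Pappa, Vav2, Camk1, Kcnt1, Plce1, Rgs20 and Sv2b did not.

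**Figure D1:**
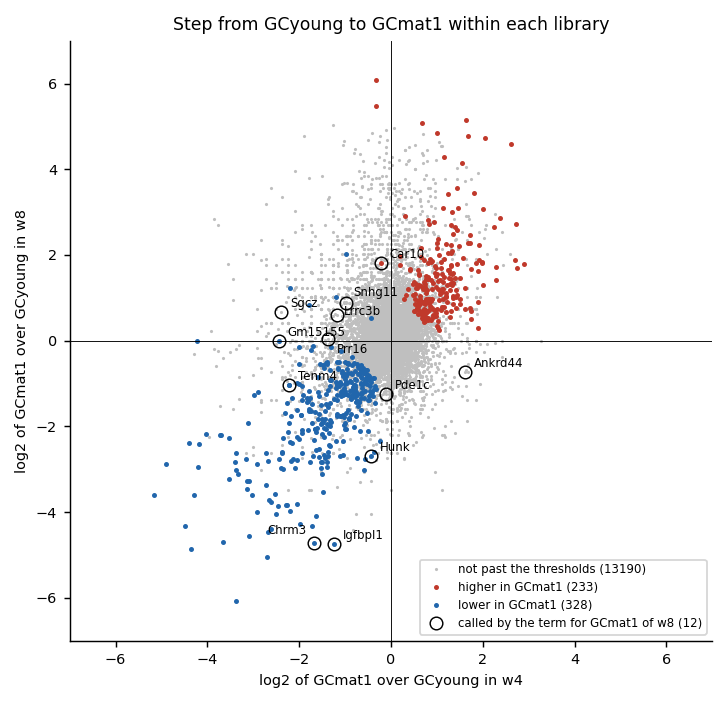
Each point is a gene, with the log2 ratio of GCmat1 to GCyoung in w4 on the horizontal axis and in w8 on the vertical axis. The 233 higher genes (red) lie mostly in the upper right and the 328 lower genes (blue) mostly in the lower left, with the blue points reaching farther out, and the 12 circled genes are those called by an added term for GCmat1 of w8.

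The largest falls were in genes that were close to silent in GCmat1. Fam163a had 26.4 CPM in GCyoung of w4 and 13.2 in GCyoung of w8, against 1.12 and 0.305 in GCmat1 (log2 change -5.39 ± 0.48 SE, 42.0-fold lower, adjusted p = 1.15e-10). Fxyd5, which encodes a regulator of the sodium pump, stood at 16.3 and 15.3 in GCyoung and at 1.40 and 0.0872 in GCmat1 (log2 change -5.15 ± 0.55 SE). Cntn6, a contactin that joins neurites, went from 17.7 and 34.8 to 2.53 and 0.872 (log2 change -4.36 ± 0.37 SE). GCyoung and GCmat1 values did not overlap here. Next to them fell Mndal, of the interferon-inducible p200 family, with 19.9 and 51.6 in GCyoung and 1.40 and 1.75 in GCmat1 (log2 change -4.40 ± 0.36 SE). Myo16, an unconventional myosin of neurons, had 25.5 and 30.0 in GCyoung and 3.93 and 1.22 in GCmat1 (log2 change -3.69 ± 0.30 SE). The receptor kinase Ros1, Tmem200a, the exchange factor Vav2, the polysialic acid synthase St8sia2, Ankfn1, the synaptic adhesion protein Igsf21 and Tmem196 completed the 12 largest falls. In GCyoung these last 7 genes lay between 0.697 and 8.23 CPM, and in GCmat1 at or under 0.567. Ros1 and Ankfn1 had 0 UMIs in GCmat1 of w4, which allows up to 0.842 CPM by counting error alone. Vav2 in w8 rested on 1 UMI in each cluster. Tmem200a and Vav2 did not pass without w4 (adjusted p = 0.10 and 0.69), nor St8sia2 and Igsf21 without w8 (adjusted p = 0.22 and 0.086).

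The largest rises started from very low levels. The clearest was A330050F15Rik, a gene with no assigned function, at 6.33 CPM in GCyoung of w4 and 4.88 in w8, against 41.3 and 31.3 in GCmat1 (log2 change 2.73 ± 0.31 SE, 6.64-fold, adjusted p = 2.11e-08). Svil, the actin-binding protein supervillin, rose from 9.63 and 7.67 to 62.6 and 23.8 (log2 change 2.41 ± 0.29 SE). Epha10, an Eph receptor without kinase activity, rose from 12.3 and 4.88 to 42.1 and 51.1 (log2 change 2.29 ± 0.28 SE). The GCmat1 values stood above those of GCyoung. The rhomboid family member Rhbdl3 was at 3.10 and 2.09 in GCyoung and 16.0 and 15.2 in GCmat1. The integrin subunit Itga7, a laminin receptor, was at 3.80 and 4.18 and rose to 24.7 and 14.8. Itgav, the alpha subunit of vitronectin-binding integrins, went from 2.66 and 0.697 to 10.95 and 20.6. The remaining 6 (Lgr6, a receptor for R-spondins, Stard8, a GTPase-activating protein, the Hedgehog co-receptor Boc, the histone gene Hist2h4, the actin-associated Afap1l2 and the protease Pappa) had at most 8 UMIs in any GCyoung sum. Lgr6, Boc and Pappa had none in GCyoung of w8, where a count of 0 allows up to 2.09 CPM, so their fitted changes depend on the prior count. All of these 6 but Afap1l2 lost the call without w8, and all 6 lost it without w4, as did Itga7 (adjusted p = 0.14). Rhbdl3, Svil and Epha10 passed under every tested alternative, and A330050F15Rik under all but DESeq2. Hist2h4 and Mndal belong to families with near-identical copies. The authors left out reads that mapped to several places, so reads shared between copies may be missing, and the values of both genes are uncertain.

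**Figure D2:**
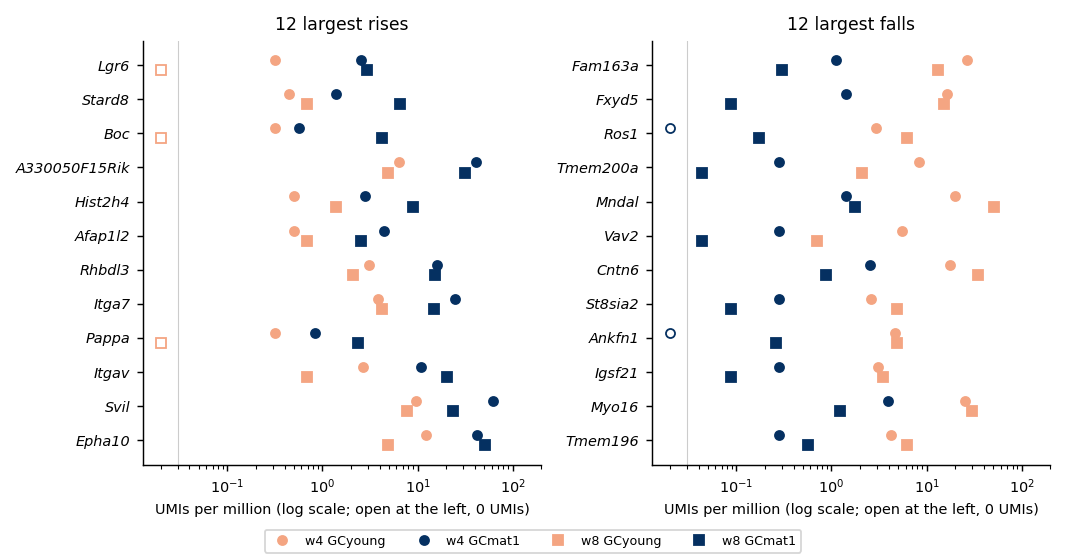
CPM (log axis) of the 12 largest rises (left) and the 12 largest falls (right) in the 4 sums, circles for w4 and squares for w8, orange for GCyoung and dark blue for GCmat1, with open symbols at the left edge for 0 UMIs. Blue stands right of orange within each library for every rise and left of it for every fall, and most of the falling genes end below 3 CPM.

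The 2 largest falls, Fam163a and Fxyd5, were nearly absent in GCmat1. The 2 largest rises, Lgr6 and Stard8, were nearly absent in GCyoung and still low in GCmat1. There Lgr6 was at 2.53 and 2.97 CPM and Stard8 at 1.40 and 6.59 in w4 and w8. The promoters of these genes are shown as the ends of the ranking by fitted change. Each is the stretch from 250 bases before to 50 after the start site in the RefSeq table of GRCm38.p6, read 5′ to 3′ on the gene's strand. Capitals mark 5 motifs searched on both strands, AACAAT (the core bound by SOX proteins), AGGTCA (a nuclear receptor site), TGACGT (the cAMP response core), CAGCTG (an E-box) and TATAAA (the TATA box). The regions are chr1:135105227-135105526 on the minus strand for Lgr6, chrX:99042331-99042630 on the plus strand for Stard8, chr1:156204977-156205276 on the minus strand for Fam163a, and chr7:31042282-31042581 on the minus strand for Fxyd5.
Lgr6: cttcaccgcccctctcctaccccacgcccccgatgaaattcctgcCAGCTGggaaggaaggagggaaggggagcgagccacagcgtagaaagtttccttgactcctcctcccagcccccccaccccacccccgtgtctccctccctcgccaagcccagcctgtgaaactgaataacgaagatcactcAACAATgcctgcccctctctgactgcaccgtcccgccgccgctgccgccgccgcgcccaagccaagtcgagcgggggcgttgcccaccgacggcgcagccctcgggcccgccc
Stard8: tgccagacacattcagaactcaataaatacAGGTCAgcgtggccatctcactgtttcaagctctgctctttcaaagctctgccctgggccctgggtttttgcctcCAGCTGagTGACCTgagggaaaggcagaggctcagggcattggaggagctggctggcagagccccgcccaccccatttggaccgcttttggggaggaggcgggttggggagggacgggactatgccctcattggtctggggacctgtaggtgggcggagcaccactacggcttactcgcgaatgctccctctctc
Fam163a: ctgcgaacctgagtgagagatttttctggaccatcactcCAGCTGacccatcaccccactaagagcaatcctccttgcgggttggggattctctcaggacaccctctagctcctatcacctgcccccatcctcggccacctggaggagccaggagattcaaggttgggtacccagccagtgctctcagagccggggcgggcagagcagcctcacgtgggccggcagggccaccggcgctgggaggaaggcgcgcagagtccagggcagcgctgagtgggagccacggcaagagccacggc
Fxyd5: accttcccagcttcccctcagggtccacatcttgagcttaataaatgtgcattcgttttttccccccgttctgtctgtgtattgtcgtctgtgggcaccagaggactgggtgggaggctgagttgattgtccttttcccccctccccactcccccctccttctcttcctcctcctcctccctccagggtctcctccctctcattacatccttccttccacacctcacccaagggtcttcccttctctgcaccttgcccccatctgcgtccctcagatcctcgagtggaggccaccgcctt

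The E-box was present in the Lgr6, Stard8 and Fam163a promoters, and Fxyd5 held none of the 5 motifs. Over all genes with a promoter in the table, CAGCTG was found in 18.4% of 163 higher genes and 21.1% of 227 lower genes, beside 15% of 9906 genes tested and 16.3% of the 32851 promoters of the table. The SOX core was in 6.75% of higher and 6.61% of lower genes, beside 5.73% of those tested and 10.7% of all promoters. For AGGTCA the shares were 11.7%, 10.1%, 11.5% and 16.3% in the same order. For TGACGT they were 8.59%, 7.93%, 12.1% and 7.51%, and for TATAAA 6.13%, 7.93%, 6.49% and 13.6%. These shares are a description of letters in a short window and were not tested.

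The functions that changed are described with 38 lists of genes, grouped by role. Of the tested genes in any list, 73 were higher and 87 lower among 1304. Many of these 160 calls rested on having both libraries. With 1 library left out, 70 did not pass without w4, 93 without w8 and 41 in either case, so that 38 passed both ways, and DESeq2 left out 91. DESeq2 left out 56 of the 73 higher but 35 of the 87 lower members, so the rises depend more on the edgeR fit. With only GCmat1 nuclei at earlier pseudo-times kept, 18 higher and 13 lower members did not pass. Losses of single genes are given below, mainly for those with values, and members named by symbol alone are subject to the same limit. A list's counts are set beside the background of 1.69% of all genes higher and 2.39% lower, and its median beside a median log2 change of 0.01 over all genes. The listed genes as a whole were called more often than that background (73 and 87 of 1304), and the lists were written with earlier results known. A list above the background is thus not by itself set apart from the other lists.

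**Figure D3:**
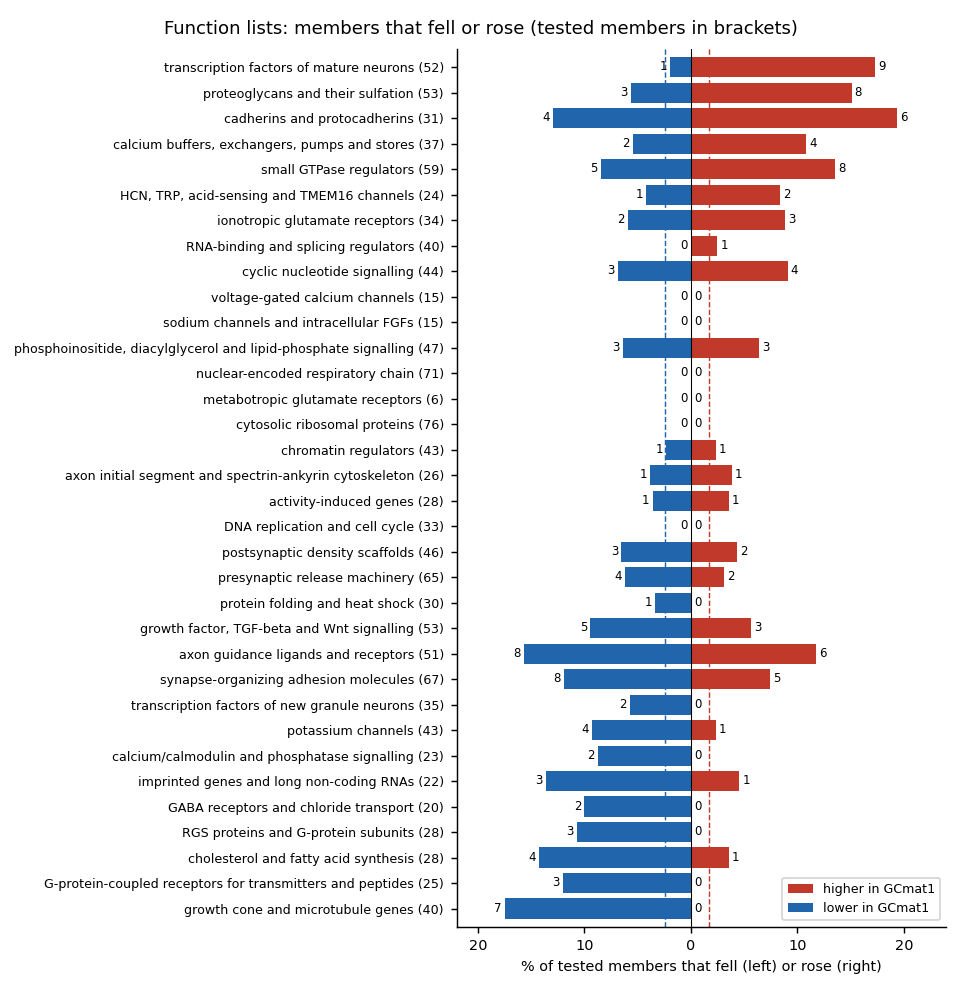
Share of the tested members of each function list that were lower (blue, to the left) or higher (red, to the right) in GCmat1, with counts at the bar ends, the number tested in brackets and dashed lines at the shares over all genes (2.39% lower, 1.69% higher). Mature neuron transcription factors and proteoglycan genes hold mostly rises (9 against 1 and 8 against 3), growth cone genes hold 7 falls and no rise, and the sodium channel, calcium channel, respiratory chain and ribosomal lists hold no calls.

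Of 40 growth cone and microtubule genes tested, 7 fell (17.5%) and none rose, with a median log2 change of -0.23. Dpysl3, a collapsin response mediator of growing axons, had 47.5 and 46.0 CPM in GCyoung of w4 and w8 and 9.55 and 9.77 in GCmat1 (log2 change -2.19 ± 0.19 SE, adjusted p = 6.17e-11). Stmn2, which destabilizes microtubules, fell from 46.6 and 42.5 to 14.9 and 11.1 (log2 change -1.73 ± 0.24 SE). Gap43, a major growth cone protein, fell from 11.9 and 10.5 to 2.53 and 1.35 (log2 change -2.42 ± 0.43 SE). The clusters were well apart in both libraries for each. The microtubule-binding Nav1 was far more abundant and fell by less, from 312 and 330 to 176 and 151 (log2 change -0.91 ± 0.17 SE). The other falls in the list were Dcx, Dpysl5 and the kinesin Kif21b. Without w8, Nav1 no longer passed (log2 change -0.81, adjusted p = 0.10).

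Axon guidance genes moved both ways. Of 51 tested, 6 rose (11.8%) and 8 fell (15.7%), and the median log2 change was -0.30. The falls were mostly semaphorins, secreted or membrane-bound guidance cues: Sema3a, Sema3c, Sema3e, Sema4d, Sema6a and Sema6d, with the receptors Robo1 and Ephb2. Sema3e went from 79.4 in GCyoung of w4 and 107 in w8 to 24.2 and 31.7 in GCmat1 (log2 change -1.58 ± 0.21 SE, adjusted p = 8.39e-07). Sema6a went from 24 and 27.2 to 8.70 and 6.54 (log2 change -1.50 ± 0.24 SE). The rises were the repellent cue Slit1, its receptor-family member Robo3, the netrin receptors Unc5c and Unc5d, Efna5 and Ntng1. Slit1 rose from 147 and 128 to 317 and 339 (log2 change 1.27 ± 0.17 SE, adjusted p = 1.41e-06). Ntng1, the membrane-anchored netrin-G1, stood at 74.2 and 108 in GCyoung and at 112 and 459 in GCmat1. Its w4 mature value was thus only just above the w8 young one. Without w8 Ntng1 was not called (log2 change 0.61). DESeq2 called none of the 6 rises (adjusted p = 0.41 for Ntng1 and 0.054 for Slit1), and of the falls it left out Robo1, Sema3a, Sema3c and Sema4d. With only GCmat1 nuclei at earlier pseudo-times kept, Unc5c and Unc5d did not pass (log2 change 0.11 and 0.21), nor did Ephb2 and Sema3c.

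Adhesion genes also exchanged members. Among 31 cadherins and protocadherins, which join neurons through calcium-dependent contacts, 6 rose (19.4%) and 4 fell (12.9%). Pcdh15 fell from 481 and 509 CPM to 184 and 87.7 (log2 change -1.88 ± 0.27 SE, adjusted p = 3.91e-06), and Cdh10 from 288 and 355 to 160 and 164. Cdh18 rose from 5.38 and 5.58 to 14.3 and 63.2 (log2 change 2.21 ± 0.32 SE), and Pcdh7 from 41.0 and 49.5 to 77.2 and 156 (log2 change 1.41 ± 0.23 SE). Cdh18, Pcdh7 and Cdh10 did not pass without w8 (adjusted p = 0.075, 0.092 and 0.18). The other members called were Cdh12, Fat3, Pcdh10 and Pcdh17 (higher) and Cdh4 and Cdh13 (lower). Among 67 synapse-organizing adhesion molecules, 5 rose (Cntn3, Nrxn3, Csmd2, Flrt2, Lrrtm3) and 8 fell (Cntn6, Igsf21, Cntnap2, Cntnap4, Cadm4, Flrt1, Ntm, Tenm4). Cntn3, a contactin like the falling Cntn6, rose from 25.8 and 30.7 to 68.0 and 100 (log2 change 1.60 ± 0.22 SE, adjusted p = 2.15e-06). Thus the 2 contactins called moved in opposite directions, each in both libraries, though DESeq2 did not call Cntn3 (adjusted p = 0.11).

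Of 53 genes of proteoglycans and their sulfation, 8 rose (15.1%) and 3 fell (5.66%), although the median log2 change was -0.02. Chst9, which adds sulfate to N-acetylgalactosamine, rose from 112 and 129 CPM to 390 and 427 (log2 change 1.80 ± 0.23 SE, 3.48-fold, adjusted p = 4.52e-07). Xylt1, which begins the sugar chain on the core protein, rose from 16.0 and 10.5 to 36.8 and 40.8 (log2 change 1.43 ± 0.21 SE). The 2 clusters did not overlap. Further rises were the heparan sulfate enzymes Hs3st1, Hs3st4, Ndst3 and Ndst4 and the metalloproteases Adamts9 and Adamts20. Adamts18, another metalloprotease of this family, moved the other way, from 63.7 and 99.0 to 9.27 and 8.90 (log2 change -2.99 ± 0.24 SE, 7.97-fold lower, adjusted p = 1.01e-11). Gpc5, a glypican anchored to the membrane, fell from 144 and 156 to 49.1 and 32.5 (log2 change -1.85 ± 0.31 SE), and the core protein aggrecan (Acan) fell as well. Adamts18, Gpc5 and Xylt1 passed under every tested alternative. DESeq2 did not call Chst9 (adjusted p = 0.46), nor any other rise of this list but Xylt1, nor the fall of Acan. Adamts9, Ndst3 and Ndst4 also did not pass with only GCmat1 nuclei at earlier pseudo-times kept.

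Of 34 genes of ionotropic glutamate receptors and their partners, 3 rose (8.82%) and 2 fell (5.88%). Grik3, a kainate receptor subunit, rose from 16.7 and 15.3 to 36.2 and 55.0 (log2 change 1.43 ± 0.28 SE), and the AMPA receptor partner Cnih3 from 84.0 and 81.6 to 161 and 114 (log2 change 0.80 ± 0.18 SE). Grin2d, an NMDA receptor subunit, fell from 16.8 and 27.2 to 7.86 and 6.41 (log2 change -1.46 ± 0.26 SE). Olfm2, a secreted AMPA receptor partner, fell from 29.2 and 32.8 to 17.7 and 7.02 (log2 change -1.45 ± 0.27 SE). Cnih3 lost its call without w4 (adjusted p = 0.41), and Grik3, Grin2d and Olfm2 lost theirs without w8 (adjusted p = 0.079, 0.14 and 0.33). Grin2d alone of these 4 passed with DESeq2. The third rise was Cacng5. None of 6 metabotropic glutamate receptors passed, and the abundant Grm5 stood at 2098 and 2454 in GCyoung and 2111 and 2346 in GCmat1 (log2 change 0.04 ± 0.23 SE, adjusted p = 0.99). Of 20 genes of GABA receptors and chloride transport, none rose and 2 fell. Kctd8, an auxiliary subunit of GABA-B receptors, dropped from 34.2 and 27.2 to 3.65 and 2.53 (log2 change -3.34 ± 0.30 SE, 10.1-fold lower, adjusted p = 1.15e-10). Slc12a2, the importer NKCC1 that keeps chloride high in immature neurons, fell from 48.8 and 48.8 to 24.7 and 32.2 (log2 change -0.68 ± 0.18 SE, adjusted p = 0.013), but passed neither without w4 (adjusted p = 0.52) nor with DESeq2 (adjusted p = 0.058). The opposing exporter Slc12a5, singled out after its values were seen, stood at 90.2 and 82.3 in GCyoung and 91.5 and 93.1 in GCmat1 and did not pass (adjusted p = 0.84).

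Of 25 receptors that signal through G proteins, 3 fell and none rose. Chrm3, the M3 muscarinic acetylcholine receptor, fell from 53.0 and 84.4 to 16.0 and 2.88 (log2 change -3.30 ± 0.37 SE, adjusted p = 2.16e-08). The somatostatin receptor Sstr2 fell from 25.9 and 19.5 to 13.8 and 8.16, and the cannabinoid receptor Cnr1 from 5.89 and 9.06 to 3.93 and 2.57. The last pair did not pass with either library left out, nor Sstr2 with DESeq2 (adjusted p = 0.065). Of 28 genes for RGS proteins, which shorten G-protein signals, and for G-protein subunits, 3 fell and none rose. Rgs6 fell from 197 and 255 to 95.2 and 107 (log2 change -1.07 ± 0.22 SE). Gnb4 fell from 18.6 and 15.3 to 12.1 and 6.37 (log2 change -0.81 ± 0.25 SE, adjusted p = 0.048). Rgs6 did not pass without w8 (adjusted p = 0.080), and Gnb4 did not without w4, without w8 or with DESeq2 (adjusted p = 0.23, 0.61 and 0.19). Rgs20 was at 6.40 and 1.69 in GCyoung and GCmat1 of w4 but at 0.697 and 1.27 in w8, on 1 UMI in GCyoung, and its sign turned without w4 (log2 change 0.92). It passed neither without w8 (adjusted p = 0.17) nor with DESeq2 (adjusted p = 0.058).

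Among voltage-gated channels, none of 15 sodium channel and intracellular FGF genes and none of 15 calcium channel genes passed. With 4.08% of all genes called, lists this short would hold few calls in any case. The most abundant of these channel genes, the sodium channel partner Fgf14, had 3434 and 3823 CPM in GCyoung and 3817 and 4356 in GCmat1 (log2 change 0.24 ± 0.23 SE, adjusted p = 0.83). Cacna1e, of R-type calcium channels, had 1406 and 1456 against 1548 and 1447. Of 43 potassium channel genes 1 rose (2.33%) and 4 fell (9.30%). The Kv4 channel partner Kcnip1 went from 18.3 and 17.4 to 0.842 and 2.97 (log2 change -2.65 ± 0.34 SE, adjusted p = 4.43e-07). Its relative Kcnip3, which also binds DNA, rose from 28.8 and 29.3 to 51.1 and 99.2 (log2 change 1.38 ± 0.22 SE, adjusted p = 2.50e-05). These 2 members of 1 family thus moved in opposite directions in both libraries. The calcium-activated Kcnn3 fell from 84.1 and 107 to 61.2 and 43.9, and Kcnh7 and Kcnt1 fell too. Among 24 HCN, TRP, acid-sensing and TMEM16 channel genes, the TRP channels Trpc4 (101 and 123 to 211 and 200) and Trpc5 (215 and 200 to 362 and 265) rose and Ano4 fell. Trpc4 and Trpc5 did not pass without w4 (adjusted p = 0.089 and 0.59), and DESeq2 left out Trpc4, Trpc5 and Kcnn3 (adjusted p = 0.11, 0.88 and 0.26). Without w8, Trpc5, Ano4 and Kcnn3 did not pass (adjusted p = 0.19, 0.083 and 0.39), and Kcnt1 passed under none of these 3 alternatives.

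Of 37 genes that buffer, pump, exchange or store calcium, 4 rose (10.8%) and 2 fell (5.41%). The sodium-calcium exchanger Slc8a1, which removes calcium across the membrane, fell from 515 and 703 to 247 and 174 (log2 change -1.47 ± 0.21 SE, adjusted p = 2.75e-06). Ryr1 and Itpr1, release channels of internal stores, rose, Ryr1 from 45.1 and 41.1 to 92.1 and 63.7 (log2 change 0.95 ± 0.15 SE) and Itpr1 from 157 and 178 to 283 and 327 (log2 change 0.93 ± 0.20 SE). Ahcyl2, which modulates inositol trisphosphate signals, and the calcium sensor Hpca rose as well, and Cpne5 fell. Neither Ryr1 nor Itpr1 passed without w4 (adjusted p = 0.10 and 0.063), and Itpr1 passed neither without w8 (adjusted p = 0.11) nor with DESeq2 (adjusted p = 0.25). Hpca did not pass without w4 (adjusted p = 0.97). Of 23 genes of calmodulin kinase and phosphatase signalling, Camk1 and Camk1g fell and none rose, and neither passed without w8 (adjusted p = 0.15 and 0.32), nor Camk1 without w4 (adjusted p = 0.47).

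Second messenger and small GTPase genes gained and lost members. Of 44 genes listed for cyclic nucleotide signalling, 4 rose and 3 fell. The list also counts Rap activators, whether or not they respond to cyclic nucleotides. The cyclases Adcy1 and Adcy8 and the Rap activators Rapgef2 and Rapgef5 were higher. The phosphodiesterases Pde1a, Pde4b and Pde9a, which degrade cyclic nucleotides, were lower. Rapgef5 rose from 85.1 and 54.4 to 270 and 251 (log2 change 1.92 ± 0.22 SE, 3.80-fold, adjusted p = 2.16e-08). Adcy1 rose from 160 and 140 to 261 and 250 (log2 change 0.82 ± 0.15 SE). Pde4b fell from 90.3 and 92.0 to 32.9 and 20.7 (log2 change -1.77 ± 0.25 SE, adjusted p = 3.27e-06). The clusters did not overlap. Of 47 genes of phosphoinositide and lipid-phosphate signalling, 3 rose (Dgkz, Inpp4b, Pip5k1b) and 3 fell (Lppr1, Plce1, Pik3r1). Dgkz, a diacylglycerol kinase, rose from 47.3 and 37.6 to 140 and 83.4 (log2 change 1.46 ± 0.17 SE, adjusted p = 3.59e-08). The phosphatase Inpp4b rose from 79.6 and 53.0 to 190 and 327 (log2 change 1.81 ± 0.27 SE). Lppr1, which promotes filopodia and is also called Plppr1, fell from 437 and 511 to 146 and 170 (log2 change -1.51 ± 0.20 SE). DESeq2 did not call Rapgef5, Inpp4b or Adcy1 (adjusted p = 0.20, 0.28 and 0.068), and Pde9a and Plce1 did not pass without w4 (adjusted p = 0.35 and 0.75).

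Of 59 regulators of small GTPases, 8 rose (13.6%) and 5 fell (8.47%), with a median log2 change of 0.15. The rises were Iqgap2, Diap2, Rasgrp1, Arhgap20, Arhgef3, Rasal2, Rasgrf2 and Tiam2, and the falls Vav2, Elmo1, Limk1, Rnd2 and Srgap2. The scaffold Iqgap2 rose from 273 and 208 to 446 and 562 (log2 change 1.10 ± 0.16 SE, adjusted p = 5.23e-06), and the formin Diap2 from 301 and 254 to 587 and 628 (log2 change 1.19 ± 0.22 SE). Diap2 did not pass without w8 (adjusted p = 0.08046), nor Vav2 without w4 (adjusted p = 0.69) or Rasgrp1 with DESeq2 (adjusted p = 0.067).

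Of 65 presynaptic genes, 2 rose (Nrn1, Syt13) and 4 fell (Rims3, Sv2b, Syngr1, Unc13b). The vesicle priming factor Unc13b fell from 92.7 and 97.6 to 46.9 and 62.6 (log2 change -0.66 ± 0.18 SE). The vesicle protein Sv2b was rare, at 6.33 and 3.49 in GCyoung and 1.97 and 0.393 in GCmat1. Without w4, Unc13b, Sv2b and Syngr1 did not pass (adjusted p = 0.46, 0.26 and 0.76), and without w8 Sv2b and Rims3 did not (adjusted p = 0.37 and 0.063). DESeq2 left out Unc13b (adjusted p = 0.12) and Sv2b (adjusted p = 0.19). Of 46 scaffolds of the postsynaptic density, 2 rose (Homer2, Tanc1) and 3 fell. Lin7a, which links receptors to the scaffold, fell from 297 and 263 to 121 and 97.2 (log2 change -1.28 ± 0.19 SE, adjusted p = 6.20e-06), and did so under every tested alternative. Epb4.1l2 and Psd2 were the other falls. Psd2 and Homer2 did not pass without w4 (adjusted p = 0.20 and 0.84), nor Psd2 without w8 (adjusted p = 0.055). Of 26 genes of the axon initial segment and its cytoskeleton, Syne1 rose and L1cam, an adhesion molecule of growing axons, fell, and neither passed without w8 (adjusted p = 0.62 and 0.42).

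Of 52 transcription factors listed for mature neurons, 9 rose (17.3%) and 1 fell (1.92%), with a median log2 change of 0.27. The list holds factors that the study named for mature cells from other libraries of its own, Bcl6, Glis3, Foxk1, Mkx and Runx2 among them. It was also written with earlier results of the present libraries known, so its count is not independent evidence of a direction. Bcl6, a repressor, rose from 12.4 and 16.7 to 58.7 and 42.1 (log2 change 1.88 ± 0.27 SE, 3.68-fold, adjusted p = 2.82e-06). The orphan nuclear receptor Esrrg rose from 39.1 and 24.4 to 80.9 and 83.2 (log2 change 1.36 ± 0.25 SE), and Glis3 from 202 and 208 to 292 and 614 (log2 change 1.12 ± 0.21 SE). Glis3 did not pass without w8 (adjusted p = 0.58), nor Esrrg with DESeq2 (adjusted p = 0.29). The other rises were Etv1, Foxk1, Mkx, Runx2, the glucocorticoid receptor Nr3c1 and the thyroid hormone receptor Thrb. Of these, DESeq2 called Foxk1 alone, with adjusted p from 0.053 (Thrb) to 0.78 (Mkx) for the rest. Bach2, a repressor best known in lymphocytes, fell from 135 and 139 to 67.9 and 54.8 (log2 change -1.10 ± 0.20 SE). Without w8 it was not called, at a log2 change of -0.97. Of 35 factors listed for new granule neurons, none rose and 2 fell, with a median log2 change of -0.27. Sox11, which drives early neuronal genes, fell from 61.0 and 64.8 to 37.9 and 26.0 (log2 change -0.90 ± 0.19 SE), and Neurod6 from 6.59 and 7.67 to 1.97 and 0.305 (log2 change -3.01 ± 0.57 SE). Neither passed without w8. Neurod6 is also a marker of pyramidal cells of the CA fields, whose 10 markers together summed to 43.1 to 61.2 CPM.

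Growth factor, TGF-beta and Wnt genes counted 3 rises and 5 falls among 53. Tgfbr1, the type I TGF-beta receptor, fell from 177 and 176 to 56.7 and 92.3 (log2 change -1.19 ± 0.16 SE, adjusted p = 9.44e-07). Ldlrad4, which dampens TGF-beta signals, rose from 131 and 115 to 317 and 267 (log2 change 1.31 ± 0.20 SE, adjusted p = 1.04e-05). Nell1, a secreted glycoprotein, fell from 24.7 and 35.6 to 5.90 and 1.61 (log2 change -3.50 ± 0.41 SE). Receptor and inhibitor of this pathway thus moved in opposite directions, under every tested alternative. The other calls were the rises of Ror1 and Sorcs3 and the falls of Acvr1, Bmpr1b and Igfbpl1. Sorcs3 passed neither without w8 (adjusted p = 0.057) nor with DESeq2 (adjusted p = 0.49).

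Cholesterol and fatty acid synthesis had the lowest median of the lists that the study did not choose itself, with a log2 change of -0.37 over 28 genes, of which 4 fell (14.3%) and 1 rose. Msmo1 fell from 23.1 and 21.6 to 15.7 and 4.67 (log2 change -1.32 ± 0.28 SE, adjusted p = 0.0019). Fdft1 fell from 32.2 and 23.7 to 18.3 and 9.64 (log2 change -1.05 ± 0.24 SE), and Sqle from 17.0 and 12.6 to 10.1 and 4.32 (log2 change -1.06 ± 0.26 SE). These enzymes make squalene and its sterol products, and Hmgcs1, at the head of the pathway, fell too. Msmo1, Fdft1 and Sqle did not pass without w8 (adjusted p = 0.75, 0.14 and 0.52), Fdft1 and Sqle not without w4 (adjusted p = 0.080 and 0.14), and Msmo1 and Fdft1 not with DESeq2 (adjusted p = 0.097 and 0.098). Elovl5, which lengthens polyunsaturated fatty acids, was the rise, and passed under none of these 3 alternatives. Among imprinted and long non-coding genes, the neighbours Mirg and Rian fell with Snrpn, and Grb10 rose, of 22 tested. Without w8, Mirg, Rian and Grb10 did not pass (adjusted p = 0.33, 0.26 and 0.19), and without w4 Snrpn and Grb10 did not (adjusted p = 0.25 and 0.15). Rian went from 155 and 186 to 104 and 86.7 (log2 change -0.77 ± 0.19 SE), and was not called by DESeq2 (adjusted p = 0.75). Meg3, of the same imprinted cluster, stood at 2145 and 2121 in GCyoung and at 1442 and 1154 in GCmat1 and did not pass (log2 change -0.66 ± 0.25 SE, adjusted p = 0.17).

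Housekeeping lists held few calls, though with 4.08% of all genes called, lists of this size would hold few in any case. None of 71 respiratory chain, 76 ribosomal protein or 33 cell cycle genes passed, with median log2 changes of -0.03, -0.11 and -0.01. Of 30 chaperone genes Hspa12a alone fell, of 43 chromatin regulators Kdm7a rose and Chd5 fell, and of 40 RNA-binding proteins Zmat4 alone rose. Of 28 genes induced by activity, Sorcs3 rose and the prohormone convertase Pcsk1 fell. Hspa12a, Kdm7a and Pcsk1 did not pass without w4 (adjusted p = 0.39, 0.27 and 0.32), nor Chd5, Zmat4, Pcsk1 and Sorcs3 without w8 (adjusted p = 0.18, 0.14, 0.067 and 0.057). Of the genes of position along the hippocampus, Lct of the 3 dorsal genes rose (20.0 and 24.4 to 52.5 and 48.03) and Spata13 fell. Without w4 neither was called (log2 change 1.065 and -0.52), and Lct did not pass with DESeq2 (adjusted p = 0.70). The ventral gene Tox3 did not pass (3.29 and 4.88 in GCyoung, 1.97 and 13.5 in GCmat1, adjusted p = 0.085). The authors left mature nuclei with ventral genes out of the pseudo-time, which the young nuclei were not subject to, and the part of this choice in the step was not tested. With every GCmat1 nucleus included, 523 genes passed, 510 of them among the 561.

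The genes that the study itself named for this step were chosen on these libraries and are no independent evidence of its direction. All 5 named as higher (Car10, Chst9, Inpp4b, Ntng1, Rapgef5) and 4 of the 5 named as lower (Lin7a, Lppr1, Pcdh15, Slc8a1, but not Meg3) passed in the summed counts. Car10 and Ntng1 did not without w8 (adjusted p = 0.97 and 0.20), and DESeq2 called none of the 5 higher genes.

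A few of the named genes are given along pseudo-time. Nuclei of each library were placed in 10 bins of the authors' pseudo-time, which was itself made from expression, so these profiles are a description. Dpysl3 in w4 went from 115 CPM in the first bin (480 nuclei) to 48.6, 20.6 and 7.91 in the next 3, of which at most 8.68% of nuclei were GCmat1. In w8 it went from 126 in the first bin to 29.6, 5.77 and 3.29, on few UMIs, and then to 14.2 in the last. Slc8a1 went from 1066 in the first bin of w4 to 256 in the fourth, and from 1320 to 279 in w8, where 29.6% of the nuclei of the fourth bin were GCmat1. Slit1 rose from 50.3 to 332 between the first and the fifth bin of w4 and from 75.2 to 337 in w8, and stayed between 284 and 374 in the later bins of w8. Rapgef5 rose from 29.0 to 277 in w4 and from 12.1 to 284 in w8, and was at 193 in the ninth bin of w8. Inpp4b went on rising in w8, from 147 in the fifth to 429 in the ninth bin.

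**Figure D4:**
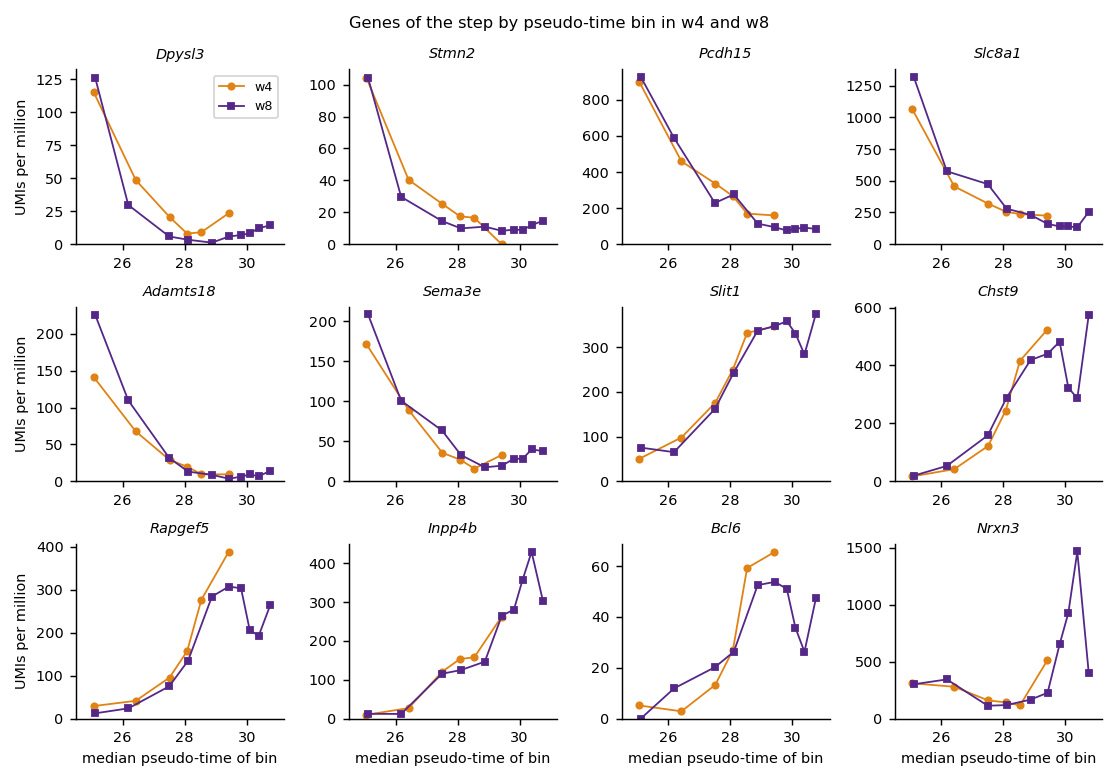
CPM of 12 genes in bins of pseudo-time, plotted at the median pseudo-time of each bin, for w4 (orange circles, 6 bins) and w8 (purple squares, 10 bins). Dpysl3, Stmn2, Pcdh15, Slc8a1, Adamts18 and Sema3e descend in both libraries before pseudo-time 28, Slit1, Chst9, Rapgef5, Inpp4b and Bcl6 climb along the same course, and Nrxn3 rises late, to 1467 in the ninth bin of w8.

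The step continued or reversed what the preceding cluster showed. In immature granule cells of the cluster before GCyoung (GCimm2), Dpysl3 stood at 227 CPM in both libraries, against 47.5 and 46.0 in GCyoung. Fam163a stood there at 237 and 213, Pcdh15 at 2084 and 2198, and Rgs6 at 1396 and 1379. These genes had thus already come down before the step. Among the rises, Slit1 was at 4.32 in GCimm2 of w4, Chst9 at 2.16, Rapgef5 at 19.0, Iqgap2 at 14.2 and Adcy1 at 20.3, each well under its level in GCyoung. Other rises followed a lower level in GCyoung than in GCimm2. Trpc4 had 186 and 147 in GCimm2, 101 and 123 in GCyoung and 211 and 200 in GCmat1, and Itpr1 had 239 and 380, 157 and 178, and 283 and 327. The GCimm2 sum of w8 was small, with values in steps of 6.66 CPM. A narrow gap there, such as 147 to 123 for Trpc4, is therefore uncertain. Fxyd5, in contrast to the other large falls, was higher in GCyoung of w4 (16.3) than in GCimm2 (6.04).

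Several genes stood at another level in GCmat2, the second mature cluster, which the authors kept out of the pseudo-time. The study names Sorcs3, Nrxn3 and Kcnip3 among its markers and links them to activity. It proposes that GCmat2 holds neurons of w4 to w8 that had probably been active before isolation. Sema3e was at 276 and 167 CPM there, Mndal at 81.8 and 78.5, Nell1 at 108 and 154 and Fam163a at 50.8 and 44.2, each above both GCmat1 values. Itpr1 was at 42.0 and 34.3, Trpc5 at 17.7 and 19.9 and Bcl6 at 2.21 and 3.61, each below both GCmat1 values. Sorcs3, a sorting receptor of synapses, was at 758 and 900 in GCmat2 against 17.7 and 29.5 in GCmat1, and Nrxn3, a presynaptic organizer, at 2904 and 4336 against 526 and 738. In GCmat1 the 5% of nuclei with the highest share of Nrxn3 held 59.4% of its UMIs in w4 and 42.1% in w8, against 33.5% and 35.0% in GCyoung. For Sorcs3 they held 88.9% and 72.6% in GCmat1 and 100% in GCyoung of both libraries, but it was detected in only 6.77% and 10.9% of GCmat1 and 3.34% and 3.19% of GCyoung nuclei, which alone makes this share high. Of 48 named rises, 11 did not pass when only GCmat1 nuclei at earlier pseudo-times were kept, an alternative chosen after seeing the data. The direction turned for Nrxn3 (log2 change -0.30, adjusted p = 0.70) and Sorcs3 (log2 change -0.19, adjusted p = 0.94). The other 9 were Car10, Pappa, Rasgrp1, Pcdh7, Itgav, Boc, Elovl5, Stard8 and Syne1, with log2 changes from 0.11 for Car10 to 1.81 for Stard8. Under that alternative, in which GCmat1 kept 355 nuclei in w4 and 651 in w8, 562 genes passed, and 446 of them were among the 561.

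Whether the step was of one size in w4 and w8 was asked with a term for GCmat1 of w8 added to the model, which passed for 12 of 15170 genes (0.0791%). This term reads GCmat1 against a library effect shared by all clusters. When the 4 sums alone set the difference between the steps, an alternative added after seeing the data, 5 of the 12 passed and no other gene (0.033%, with 529 at an unadjusted p under 0.05 by edgeR). These were Chrm3, Car10, Gm15155, Igfbpl1 and Sgcz. Ankrd44 went from 12.03 to 35.9 CPM in w4 and from 10.5 to 5.85 in w8 (added term -2.88 ± 0.41 SE on the log2 scale, adjusted p = 3.78e-05), but its difference from the 4 sums, -2.29 ± 0.58 SE, did not pass (adjusted p = 0.21). Sgcz, a sarcoglycan, went from 46.4 to 8.42 in w4 and from 64.1 to 95.6 in w8 (added term 3.54 ± 0.54 SE, difference from the 4 sums 3.15 ± 0.63 SE, adjusted p = 0.00011 and 0.014). Car10, a carbonic anhydrase relative, was at 71.0 and 58.7 in GCyoung and GCmat1 of w4 and at 101 and 334 in w8 (added term 1.81 ± 0.32 SE, difference from the 4 sums 2.12 ± 0.38 SE, adjusted p = 0.0023 and 0.0037). The sign of the step was opposite in the 2 libraries for each of these, but the reversal itself was not tested. The smaller step was -0.74 in w8 for Ankrd44, 0.66 in w8 for Sgcz and -0.23 in w4 for Car10 (log2). For Ankrd44 in w8 it was 0.44 in female and -1.07 in male nuclei. Chrm3, Igfbpl1 and Hunk were lower in GCmat1 of both libraries but more so in w8, Igfbpl1 going from 50.9 to 20.8 in w4 and from 38.3 to 1.22 in w8. For Gm15155, Lrrc3b, Tenm4, Snhg11 and Prr16 the log2 change was the lower one in w4, and for Pde1c in w8. From the 4 sums alone the difference was 1.26 ± 0.47 SE for Tenm4 and -1.08 ± 0.74 SE for Pde1c, against added terms of 1.86 and -2.04, and neither passed (adjusted p = 1).

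GCmat1 of w8 reached later pseudo-times than that of w4. Prr16 in w8 went from 265 in the first bin to 122 in the fifth and 351 in the last, and in w4 from 182 to 42.7 in the fifth bin, where most w4 mature nuclei lay. Snhg11, a long non-coding RNA, went in w8 from 401 to 85.4 in the fourth bin and to 492 in the ninth, and in w4 from 303 to 59.9. In both genes w8 rose again in bins later than the one that held most w4 mature nuclei. In the fifth bin itself Prr16 was at 122 in w8 and 42.7 in w4. Ankrd44 had 40.2 in the fifth bin of w4 and 13.1 in that of w8. The part of pseudo-time in the differences between w4 and w8 was not tested. With GCmat1 restricted to the earlier bins, Ankrd44 alone passed. In female nuclei alone 8 genes passed by edgeR, 5 of them among the 12. In male nuclei alone none passed, with 565 at an unadjusted p under 0.05, and DESeq2 called 2 genes in all nuclei. The added term had the same sign in either sex alone for all 12. As a ratio of the sums, Sgcz changed by -2.38 (log2) in w4 and 0.57 in w8 in female nuclei, and by -2.58 and 0.52 in male nuclei. These ratios went against the fitted sign for Tenm4 in female nuclei (-2.25 in w4, -2.39 in w8) and for Pde1c in female (0.020 and 4.57) and male nuclei (-1.93 and -1.70). Age after labeling and animals differ together between w4 and w8, and the age of the mice at sampling may differ with them. Their parts in the values of these 12 genes cannot be told apart. Whether both libraries were processed on the same day is not given in the sources used here.

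**Figure D5:**
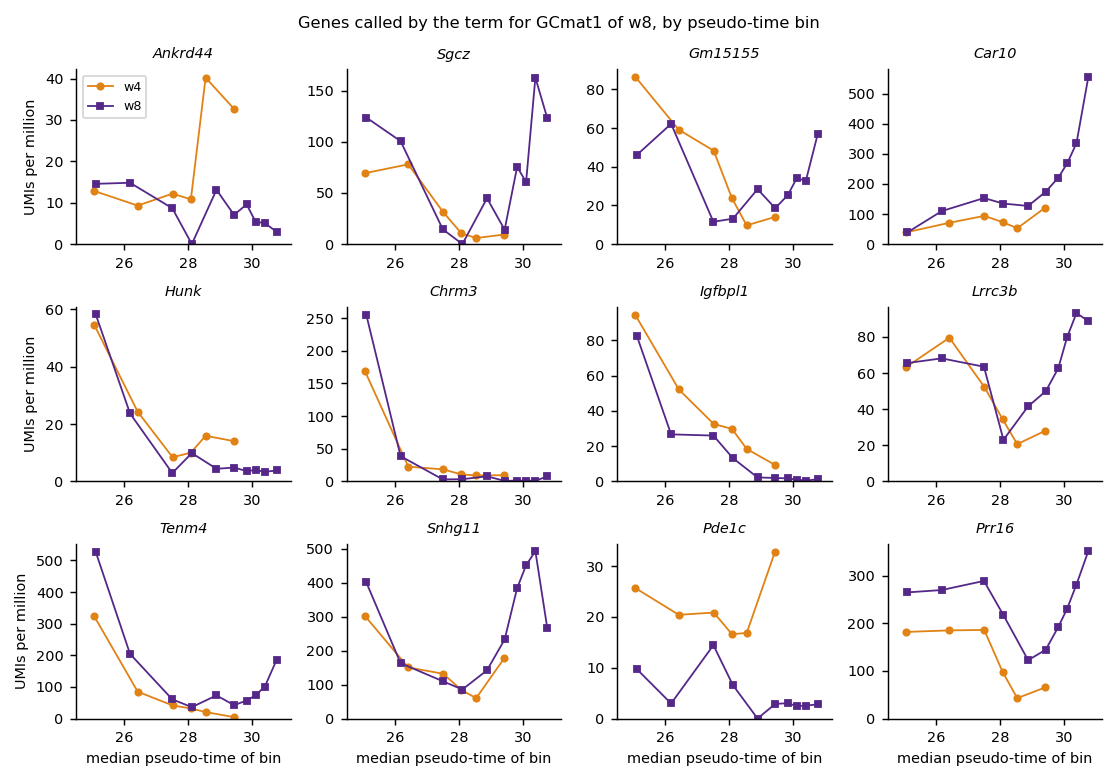
CPM of the 12 genes called by the term for GCmat1 of w8, in bins of pseudo-time, for w4 (orange circles) and w8 (purple squares). Sgcz, Lrrc3b, Snhg11 and Prr16 dip near pseudo-time 28 to 29 and climb again in the late bins that only w8 fills, while Ankrd44 is higher in w4 where the libraries meet (40.2 against 13.1 in the fifth bin).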

How the data were processed

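The nuclei were sorted and sequenced by the authors, who aligned the reads with STARsolo 2.7.4a to GRCm38 and counted exonic and intronic UMIs per gene. Gene lengths and gene types in the text above come from GENCODE M21. The authors kept nuclei with at least 1000 features, removed doublets, outliers and a mostly male group of w4 nuclei, named the clusters and set the pseudo-time. The deposited counts are whole UMIs per gene and nucleus, not normalized. The deposited log2 values are scran-normalized by the authors, as log2 of the value plus 1, and served only for an untested alternative.

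UMIs were summed per library and cluster, giving 28 sums of at least 10 nuclei. The sums of other clusters helped to estimate the spread and, since the library term is common to all clusters, also the library effect, so that a fitted change can depart from the steps within w4 and w8. They were fitted with edgeR 4.0.16 (filterByExpr, TMM, cluster and library as terms, quasi-likelihood test, 15 residual degrees of freedom, R 4.3.3). Genes were called changed where they differed 1.5-fold or more and where p, adjusted over all 13751 genes after Benjamini and Hochberg, was no larger than 0.05. The difference between w4 and w8 was an added term for GCmat1 of w8, with the same thresholds, read against that common library effect. An alternative added after seeing the data gave both clusters of w8 terms of their own, so that the 4 sums alone set the steps and their difference. In simulated counts over 13678 genes this difference was called for 34 of 66 genes changed 4-fold and 1 of 67 changed 2-fold, and 14 of its 50 calls were unchanged genes. Alternatives used DESeq2 1.42.0, limma 3.58.1, other normalizations, filters, sets of nuclei and libraries. In simulated counts of this comparison over 13409 genes, 29.9%, 56.9% and 86.2% of genes changed 1.5-, 2- and 4-fold were called (20, 37 and 56 genes). Called as well were 17 of 13212 unchanged genes, a larger share of the calls than an adjusted p of 0.05 allows for. No library effect was set in these simulated counts.

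Members and lists were chosen with earlier results of these data known. Genes named were the 12 largest rises and falls with the same direction in both libraries and at least 50 UMIs, up to 4 changed members of each list by p (2 most abundant where none changed), and 10 genes the study names for the step. Called list members are named in full as well. Each library is 1 pool, so intervals and p-values do not measure spread between animals. Floors of 3 UMIs cover counting error only. The gene that drives Cre, and some other items, are not reported here.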

Additional observations from a re-analysis of the deposited data

Results flagged for a closer look

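For 12 genes a term for GCmat1 of w8, added to the edgeR quasi-likelihood model to ask whether the step from GCyoung differed between w4 and w8, passed the thresholds. It is read against a library effect shared by all clusters and is not the plain difference of the steps. On the log2 scale the term was 3.539 for Sgcz, 2.442 for Gm15155, 1.89 for Snhg11, 1.862 for Tenm4, 1.812 for Car10, 1.692 for Lrrc3b and 1.557 for Prr16. It was -2.903 for Igfbpl1, -2.883 for Ankrd44, -2.593 for Chrm3, -2.111 for Hunk and -2.043 for Pde1c. The difference set by the 4 sums alone, added after seeing the data, had the same sign for all 12 and passed for Chrm3, Car10, Gm15155, Igfbpl1 and Sgcz. The term of all 12 kept its sign under each alternative run for this test, female and male nuclei alone included, but the ratios of the sums within a sex went against it for Tenm4 in female nuclei and for Pde1c in both sexes. Pde1c in GCyoung of w8 rested on 10 UMIs. The parts of age after labeling, of the animals and of their age at sampling cannot be told apart.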

How the results depend on the processing

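Of 118 named genes past the thresholds, 32 stayed past them in the same direction under every tested alternative. Leaving out 1 library gave 245 to 315 changed genes (107 to 137 higher, 138 to 178 lower). Without a library term 356 genes changed (129 higher), with DESeq2 257 (57 higher, 200 lower), with a 2-fold threshold 359 (133 higher), and with nuclei thinned to 3000 UMIs 348 (176 lower). Female nuclei alone gave 295 (136 higher, 159 lower) and male nuclei alone 225 (94 higher, 131 lower). The authors' mean log2 values, with no test, put 24 genes past the fold (20 higher, 4 lower). The fewer nuclei, sums or higher threshold are part of these alternatives by construction, and for DESeq2 and the missing library term the cause was not tested. The direction turned for Nrxn3 (-0.2956) and Sorcs3 (-0.1862) with GCmat1 of the earlier pseudo-time bins, an alternative chosen after seeing the data, for Rgs20 (0.92 without w4, -1.883 without w8) and for Car10 (-0.2547 without w8, 1.812 without w4), and the cause was not tested. Genes called by the term for GCmat1 of w8 (12) numbered 24 with RLE factors, 50 with no filter, 6 when thinned, 2 with DESeq2, 1 in the earlier bins, 5 when the 4 sums alone set the difference (also added after seeing the data), 8 in female nuclei (5 of them among the 12) and 0 in male nuclei (565 at an unadjusted p under 0.05 by edgeR). The 188 GCyoung nuclei of w8 limit the depth. The library term is common to all clusters, so it pairs GCyoung with GCmat1 within each library only in part.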
